A study of Mus musculus with 8 samples.

Results

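The miR-30 family is a set of related microRNAs (miRNAs, short RNAs that lower the output of matching mRNAs), and both strands of its hairpins were examined here in the kidneys of CD-1 mice given tacrolimus. The members were chosen by name: mmu-miR-30a-5p, mmu-miR-30b-5p, mmu-miR-30c-5p, mmu-miR-30d-5p and mmu-miR-30e-5p from the 5p arm, and mmu-miR-30a-3p, mmu-miR-30e-3p, mmu-miR-30c-2-3p, mmu-miR-30b-3p and mmu-miR-30d-3p from the 3p arm. These 10 miRNAs were among 1023 mouse miRNAs on the array, and the rule that names them uses no measured value, although the family was picked with earlier results of these data known. Whole-kidney RNA came from CD-1 mice that received tacrolimus at 1 mg/kg per day for 28 days (4 samples) and from CD-1 mice that received physiological serum (4 samples). The labels name no genotype, sex or age. Each sample was labelled with Cy3 and hybridised to its own one-colour Agilent miRNA array. Nothing in the labels ties the samples to different animals, and every p-value therefore rests on sample-to-sample spread that could be technical.

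A miRNA hairpin is cut into a short duplex, and one strand, the guide, is usually kept in the silencing complex while the other, the passenger, is mostly degraded. In the miR-30 family the 5p strand is generally taken as the guide and the 3p strand as the passenger, although some 3p strands have described targets. The family is known for its expression in kidney epithelium, including podocytes, the filter cells of the glomerulus, where it represses Notch1 and components of calcium and calcineurin signalling. Tacrolimus binds the immunophilin FKBP1A and inhibits calcineurin, the phosphatase that activates NFAT transcription factors.

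The mature sequences are shown because the seed, bases 2 to 8 from the 5′ end, sets which mRNAs a miRNA recognises. Mature sequences of 6 of the 10 members were found in RefSeq (GRCm38.p6), and the seed is in capitals.
mmu-miR-30a-5p: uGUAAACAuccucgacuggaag
mmu-miR-30c-5p: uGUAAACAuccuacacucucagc
mmu-miR-30e-5p: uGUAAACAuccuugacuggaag
mmu-miR-30a-3p: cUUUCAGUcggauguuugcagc
mmu-miR-30e-3p: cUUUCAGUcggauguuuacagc
mmu-miR-30c-2-3p: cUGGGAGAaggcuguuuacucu

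The 3 guide strands shown share 1 seed, and the passenger strands shown carry 2 others. Both arms of miR-30b and miR-30d had no sequence in this search, so whether they share these seeds was not checked. Among 835 array miRNAs with a RefSeq sequence, 4 had the guide seed, the other being mmu-miR-384-5p. The seed of mmu-miR-30a-3p and mmu-miR-30e-3p was held by those 2 miRNAs alone among the 835, which leave out miR-30b and miR-30d. The seed of mmu-miR-30c-2-3p was shared with mmu-miR-30c-1-3p. Counted from the 5′ end, mmu-miR-30a-5p and mmu-miR-30e-5p differ by the substitution C13U, and mmu-miR-30a-3p and mmu-miR-30e-3p by G18A.

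The hairpins whose arms were both measured are shown to place guide and passenger on one molecule. The arms are in capitals, the 5p arm first, with coordinates on GRCm38.p6. Mir30a lies at chr1:23272269-23272339 on the plus strand, Mir30c-2 at chr1:23291701-23291784 on the plus strand, and Mir30e at chr4:120772606-120772697 on the minus strand.
Mir30a: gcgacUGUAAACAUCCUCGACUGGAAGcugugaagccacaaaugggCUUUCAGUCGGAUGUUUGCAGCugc
Mir30c-2: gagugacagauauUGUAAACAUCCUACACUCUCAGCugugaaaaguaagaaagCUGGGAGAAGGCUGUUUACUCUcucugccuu
Mir30e: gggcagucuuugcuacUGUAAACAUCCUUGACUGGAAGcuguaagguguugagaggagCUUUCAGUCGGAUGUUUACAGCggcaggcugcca

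Mir30a and Mir30c-2 are neighbours on chromosome 1, with 19361 bases between them. Mir30e and Mir30c-1, with 2983 bases between them, lie within Nfyc, which encodes a subunit of the CCAAT-binding factor NF-Y. Mir30b and Mir30d neighbour each other on chromosome 15. Mir30c-1 and Mir30c-2 yield the same mmu-miR-30c-5p, so its signal joins the output of both hairpins.

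Each array probe is the complement of the 3′ part of its miRNA, so the probe pair of a near-identical couple shows how little separates them. The probe used for each is shown 5′ to 3′ as DNA, with the base at the differing position in capitals.
mmu-miR-30a-5p: cttccagtcGaggatgt
mmu-miR-30e-5p: cttccagtcAaggatgt
mmu-miR-30a-3p: gctgCaaacatccgact
mmu-miR-30e-3p: gctgTaaacatccgactg

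Over its whole length, the probe of mmu-miR-30a-5p has 1 mismatch to mmu-miR-30e-5p, and the probe of mmu-miR-30a-3p has 1 mismatch to mmu-miR-30e-3p. Signal of these couples is therefore uncertain, since part of it may come from the near-identical miRNA. The miR-30b and miR-30d members had no mature sequence to compare, so whether their probes share this limit was not checked. The probes used for the 6 members with a sequence reach only 3 to 5 of the seed bases.

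All levels below are log2 of the processed spot intensity relative to each array's 75th percentile over 252 probes detected on all 8 arrays, and a difference is tacrolimus minus control on that scale. Levels of different miRNAs are not ranked, because probes differ in brightness. Testing required detection of the brightest probe on 4 or more of the 8 arrays, which 194 of the 1023 miRNAs and 8 of the 10 members met. Between 147 and 215 miRNAs were detected per tacrolimus array, and between 157 and 197 per control array. The intensities used for scaling were 1649 to 2270 on tacrolimus arrays and 1431 to 2527 on control arrays. Correlations between arrays over the tested miRNAs lay between 0.987 and 0.997. All arrays were on 1 slide, with tacrolimus samples in row 2 and controls in row 1, so treatment and slide row cannot be told apart.

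None of the 8 tested members passed the test between tacrolimus and control kidneys, and their estimated differences were small. By limma with Benjamini-Hochberg adjustment over all tested miRNAs, 0 of 8 passed an adjusted p of 0.05, beside 3.09% of all 194, and 0 of 8 had an unadjusted p under 0.05, beside 15.5%. The adjusted p-values of the members ran between 0.578 and 0.899. Each of the 8 estimates was slightly below 0, between -0.11 and -0.02, beside 40.7% of all tested miRNAs below 0. Without scaling of the arrays 0 of 8 were below 0, beside 11.9% of all tested miRNAs. The tacrolimus and control arrays overlapped for all 8, so 0 of 8 were separated, beside 10.3% of all tested miRNAs. In whole-kidney RNA, fewer cells of a type and less of a miRNA per cell cannot be told apart.

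Among the guide strands, mmu-miR-30a-5p, which is known to repress the autophagy gene Beclin 1 in human cells, measured 2.33, 2.34, 2.37 and 2.34 in tacrolimus samples 1 to 4, against 2.33, 2.33, 2.53 and 2.40 in control samples 1 to 4. The tacrolimus samples lay close together inside the control range, and control 3 was the highest of all. The difference was -0.05 (SE 0.066, 95% interval -0.20 to 0.10, adjusted p = 0.736).

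mmu-miR-30e-5p, reported to target the mitochondrial carrier gene Ucp2 in mouse kidney, measured 1.26, 1.08, 1.24 and 1.25 in tacrolimus samples, against 1.26, 1.26, 1.33 and 1.35 in control samples. Tacrolimus 2 was the lowest of the 8, while the other tacrolimus samples lay near the lower controls. Its difference was -0.09 and did not pass the test (SE 0.067, 95% interval -0.24 to 0.06, adjusted p = 0.578). With tacrolimus 2 left out it was -0.05.

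mmu-miR-30c-5p, known to repress the matrix gene Ctgf in rat heart cells, measured 1.58, 1.53, 1.55 and 1.52 in tacrolimus samples, against 1.53, 1.49, 1.66 and 1.69 in control samples. Controls 3 and 4 lay above every tacrolimus sample and control 2 lay below every one. The difference was -0.05 (SE 0.067, 95% interval -0.20 to 0.11, adjusted p = 0.748).

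mmu-miR-30b-5p and mmu-miR-30d-5p, known to repress the glycosyltransferase gene GALNT7 in human melanoma cells, come from the neighbouring hairpins on chromosome 15. mmu-miR-30b-5p measured 0.47, 0.28, 0.37 and 0.30 in tacrolimus samples, against 0.42, 0.24, 0.36 and 0.52 in control samples. Control samples held both its lowest and its highest value, and the difference was -0.03 (SE 0.080, 95% interval -0.21 to 0.15, adjusted p = 0.887). mmu-miR-30d-5p measured -1.74, -1.78, -1.61 and -1.68 in tacrolimus samples, against -1.86, -1.66, -1.53 and -1.51 in control samples. Here too the lowest and the highest samples were controls, and the difference was -0.06 (SE 0.090, 95% interval -0.27 to 0.14, adjusted p = 0.748). With 1 sample left out at a time, the difference of mmu-miR-30d-5p ran between -0.14 without control 1 and -0.02 without control 4.

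Among the passenger strands, mmu-miR-30a-3p, described as a repressor of the hypoxia factor EPAS1 in human kidney cancer cells, measured -2.30, -2.30, -2.32 and -2.34 in tacrolimus samples, against -2.32, -2.44, -2.23 and -2.19 in control samples. The tacrolimus samples again lay close together within the control range. The difference was -0.02 (SE 0.071, 95% interval -0.18 to 0.14, adjusted p = 0.899).

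mmu-miR-30e-3p, known to target the NF-κB inhibitor gene NFKBIA in human glioma cells, measured -2.56, -2.68, -2.62 and -2.59 in tacrolimus samples, against -2.51, -2.70, -2.64 and -2.46 in control samples. All tacrolimus samples fell between the lowest and the highest control. The difference was -0.04 (SE 0.072, 95% interval -0.20 to 0.13, adjusted p = 0.812).

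mmu-miR-30c-2-3p, known to repress the stress factor gene XBP1, measured -4.06, -4.03, -4.02 and -4.24 in tacrolimus samples, against -4.12, -4.11, -3.76 and -3.92 in control samples. Tacrolimus 4 was the lowest sample and control 3 the highest. The difference was -0.11 and did not pass the test (SE 0.096, 95% interval -0.33 to 0.11, adjusted p = 0.646). It was -0.04 with control 3 left out and -0.06 with tacrolimus 4 left out.

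mmu-miR-30b-3p and mmu-miR-30d-3p were not tested. The brightest probe of each was detected on 2 of 4 tacrolimus arrays and 0 of 4 control arrays. For mmu-miR-30b-3p this probe was nevertheless highest in controls 3 and 4, at -5.82 in both. Another mmu-miR-30b-3p probe was detected on 3 arrays, with its highest value, -5.81, in control 3. mmu-miR-30b-3p stood at the common floor of -5.96 set in processing on 3 tacrolimus and 2 control arrays. mmu-miR-30d-3p stood there on 3 tacrolimus and 4 control arrays, so no fold is given for either.

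**Figure D1:**
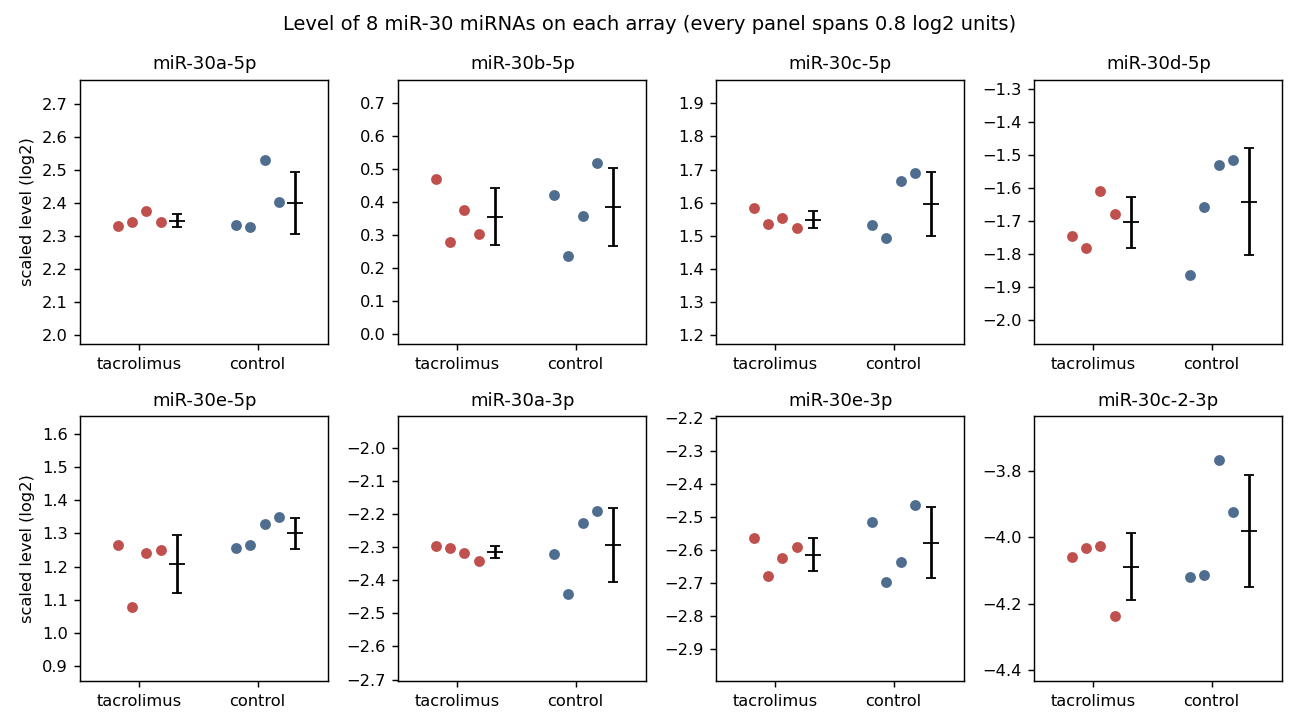
Each panel plots the scaled level (log2) of 1 tested miR-30 miRNA, with tacrolimus samples 1 to 4 on the left, control samples 1 to 4 on the right, and the mean ± SD of each group beside them. The groups overlap in all 8 panels, and mmu-miR-30a-5p spans 2.33 to 2.37 in tacrolimus samples and 2.33 to 2.53 in control samples.

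On the linear scale the estimates of the 8 tested members corresponded to ratios of tacrolimus to control between 0.928 and 0.986. The lowest bound of any of their 95% intervals was a ratio of 0.798 for mmu-miR-30c-2-3p, and the highest was 1.11 for mmu-miR-30b-5p. These intervals are not adjusted for the number of miRNAs.

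The guide and passenger strands were then compared as groups. The median difference was -0.05 over the 5 tested guide strands and -0.04 over the 3 tested passenger strands, against a median of 0.04 over all 194 tested miRNAs. All 5 guide strands and all 3 passenger strands were below that median. Without scaling of the arrays they lay below it too, with that median then at 0.19. This repeat was fixed in advance and adds no support, since scaling shifts every miRNA of an array alike, apart from values at the floor. Under quantile normalization 6 of 8 were below the median, which was then -0.02. With normexp background correction 7 of 8 were below it, at a median of -0.06 for the members and -0.03 for all tested miRNAs. With control 4 left out, 5 of 8 members were below 0, beside 43.8% of all tested miRNAs. With control 3 left out 7 of 8 were, beside 33.5%. In both settings 8 of 8 were below the median of all tested miRNAs.

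**Figure D2:**
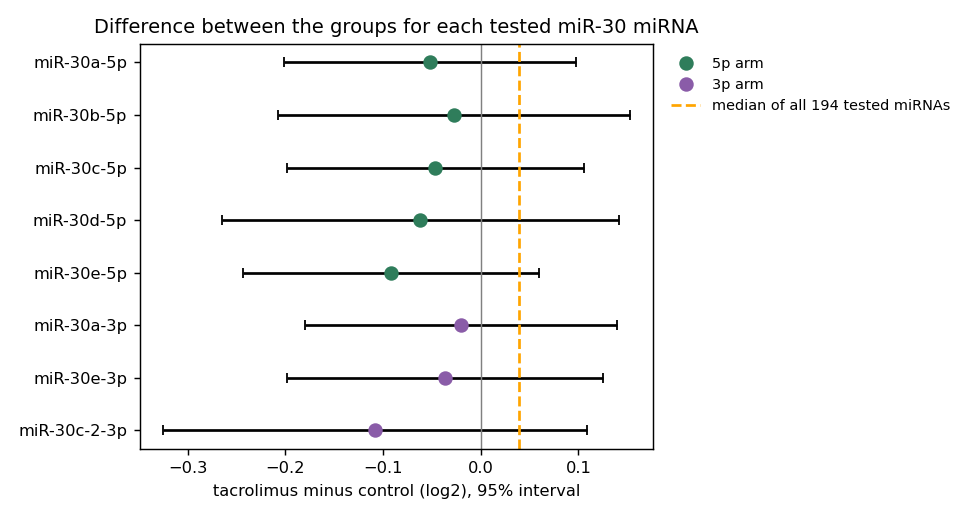
Points are the tacrolimus minus control differences (log2) of the 8 tested miR-30 miRNAs, coloured by arm, with 95% intervals as bars and the median of all 194 tested miRNAs, 0.04, as a dashed line. Every interval includes 0, and all 8 points lie between -0.11 and -0.02 with the arrays scaled. Without scaling 0 of 8 were below 0, beside 11.9% of all 194.

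To ask whether the balance of the arms changed, the log2 ratio of the 5p to the 3p signal was taken on each array, where the array scaling cancels. The level of this ratio depends on the brightness of both probes, so only its change between groups was read. For the Mir30a hairpin the ratio was 4.63, 4.64, 4.69 and 4.68 in tacrolimus samples, against 4.65, 4.77, 4.76 and 4.59 in control samples. The tacrolimus samples lay within the control range, and the difference was -0.03 (SE 0.052, 95% interval -0.15 to 0.09, adjusted p = 0.690).

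For the Mir30e hairpin the ratio was 3.83, 3.76, 3.86 and 3.84 in tacrolimus samples, against 3.77, 3.96, 3.96 and 3.81 in control samples. Controls 2 and 3 were the highest and tacrolimus 2 the lowest, with the rest intermixed. The difference was -0.06 (SE 0.058, 95% interval -0.19 to 0.08, adjusted p = 0.597).

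For mmu-miR-30c-5p over mmu-miR-30c-2-3p the ratio was 5.64, 5.57, 5.58 and 5.76 in tacrolimus samples, against 5.65, 5.61, 5.43 and 5.61 in control samples. Tacrolimus 4 was the highest and control 3 the lowest, and the groups overlapped. The difference was 0.06 (SE 0.066, 95% interval -0.09 to 0.21, adjusted p = 0.597), and its 5p arm also comes from Mir30c-1.

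None of the 3 miR-30 ratios passed the test, with 0 of 3 past an adjusted p of 0.05 in limma over 22 hairpins, beside 4.55% of all 22, and 0 of 3 at an unadjusted p under 0.05, beside 18.2%. The 22 differences ran between -0.33 and 0.38 with a median of -0.02. The 1 hairpin past the threshold was miR-652, named after its values were seen, whose 5p to 3p ratio fell by 0.33 (adjusted p = 0.00512), a call lost under quantile normalization. The direction of the Mir30a and Mir30e ratios was not stable: under quantile normalization they differed by 0.22 and 0.01, without passing the threshold.

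**Figure D3:**
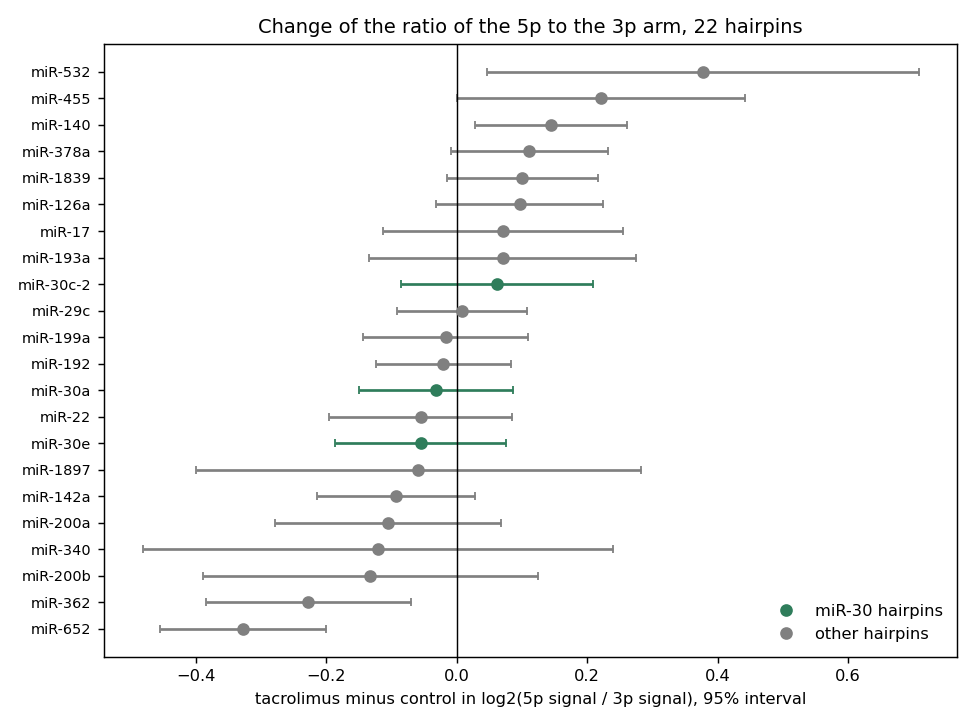
Points are the tacrolimus minus control differences in log2 of the 5p over the 3p signal for 22 hairpins, ordered by size, with 95% intervals as bars. The 3 miR-30 hairpins, in green, sit near 0 between -0.06 and 0.06, while the whole set runs between -0.33 and 0.38. Under quantile normalization the Mir30a and Mir30e ratios were above 0.

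The array carries 25 probes for the 10 members, of which 17 were detected on 4 or more arrays, covering 8 members. All 17 gave a difference below 0, between -0.13 and -0.01, with the arrays scaled. The share below 0 over all 357 mouse miRNA probes of that fit was not taken. At the level of miRNAs, 40.7% of all 194 tested were below 0 with scaling. Without it, 0 of the 8 members were, beside 11.9% of all 194. Probes of 1 miRNA share the same RNA and are not independent of each other. For mmu-miR-30a-5p the 3 probes gave between -0.11 and -0.05, and for mmu-miR-30e-5p the 2 probes gave -0.13 and -0.09. For mmu-miR-30c-2-3p the dimmer probe, detected on 5 arrays, gave -0.04 where the brighter gave -0.11.

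The slide has 4 columns, each holding the tacrolimus and the control array of 1 replicate number. With the column as a block, 0 of 8 members and 0 of all 194 miRNAs passed the adjusted threshold in limma (31 of the 194 had an unadjusted p under 0.05), and the differences of the members were the same. Within columns, with the arrays scaled, mmu-miR-30a-5p, mmu-miR-30d-5p and mmu-miR-30e-5p were lower with tacrolimus in 3 of 4 columns. mmu-miR-30c-5p, mmu-miR-30a-3p, mmu-miR-30e-3p and mmu-miR-30c-2-3p were lower in 2 of 4, and mmu-miR-30b-5p in 1 of 4. In column 4 all 8 members were below 0, between -0.31 for mmu-miR-30c-2-3p and -0.06 for mmu-miR-30a-5p, beside 35.6% of all tested miRNAs. In column 1 only mmu-miR-30a-5p (-0.01) and mmu-miR-30e-3p (-0.05) were below 0, beside 56.2% of all tested miRNAs. Column 2 had 2 of 8 members below 0, beside 28.4% of all tested miRNAs, and column 3 had 6 of 8, beside 51%.

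These signs within columns turned with the scaling, as did those of most tested miRNAs. Without it, 0 of 8 members were below 0 in column 4, beside 3.61% of all tested miRNAs. In column 1, 8 of 8 were, beside 78.9%. Set against the median of all tested miRNAs in the same column, 1, 8, 6 and 8 of the 8 members were below it in columns 1 to 4. These 4 counts were the same without scaling. That was fixed in advance, since scaling shifts all miRNAs of a column alike, apart from values at the floor.

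The members varied less among tacrolimus samples than among controls. The median SD of the 8 tested members was 0.063 in tacrolimus samples and 0.11 in control samples. The ratio of the control SD to the tacrolimus SD had a median of 2.14, with the control SD larger for 7 of 8 members, the exception being mmu-miR-30e-5p. Over the 186 other tested miRNAs that ratio had a median of 1.21, with the control SD larger for 121 of them. A wide gap was not particular to the family. The tacrolimus and control SDs were 0.015 and 0.122 for mmu-miR-429-3p, and 0.028 and 0.145 for mmu-miR-200a-3p. mmu-miR-19b-3p went the other way, at 0.098 and 0.020. These miRNAs were picked after their values were seen. The difference in spread was not tested.

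Guide and passenger strands shared their pattern over the controls. Taken as deviations from each miRNA's own mean, the 5 guide strands averaged 0.00, -0.09, 0.01 and -0.03 in tacrolimus samples 1 to 4, against -0.04, -0.05, 0.09 and 0.11 in control samples 1 to 4. The 3 passenger strands averaged 0.01, -0.03, -0.01 and -0.08 in tacrolimus samples, against -0.01, -0.11, 0.10 and 0.12 in control samples. Controls 3 and 4 were thus high for both arms. Both of these controls lay above controls 1 and 2 for 6 of 8 members and for 41 of the 186 others (22%), a split chosen after the values were seen. They also had the lowest scaling intensities among the controls, 1431 and 1739, against 2527 and 1915 for controls 1 and 2, and the part of this in the pattern was not tested.

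The other tested miRNA closest to the mean guide profile over the 8 arrays was mmu-miR-22-5p, with a root mean square distance of 0.036 log2, followed by mmu-miR-361-5p (0.061) and mmu-miR-23a-3p (0.066). The median distance over the 186 others was 0.146, and the 5 guide strands themselves lay 0.025 to 0.071 from their mean. Closest to the passenger profile were mmu-miR-26a-5p (0.054), mmu-miR-22-5p (0.056) and mmu-miR-361-5p (0.065). Distances of small size also favour miRNAs that vary little.

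The relatives of the family gave no testable signal. mmu-miR-30c-1-3p, the other passenger of the mmu-miR-30c-5p hairpins, was detected on 2 tacrolimus arrays and 1 control array. mmu-miR-384-5p, which has the guide seed, and mmu-miR-384-3p were detected on 0 of 8 arrays, and mmu-miR-30f is not among the array's names.

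Of 4 miRNAs linked to calcineurin and NFAT in heart muscle, 2 were tested and 1 passed an adjusted p of 0.05, beside 3.09% of all 194. mmu-miR-199b-5p, which represses the NFAT kinase gene Dyrk1a, averaged -2.06 ± 0.144 in tacrolimus samples and -2.56 ± 0.173 in control samples (SD, n = 4 each), a difference of 0.50 (SE 0.106, limma adjusted p = 0.0476). The rise was not particular to this list: among the 6 miRNAs that passed were also mmu-miR-199a-5p (0.47), mmu-miR-199a-3p (0.49) and mmu-miR-214-3p (0.69). In only 9 of 23 alternative settings did any miRNA pass the threshold, so these calls were absent in the others. mmu-miR-23a-3p differed by 0.03 (adjusted p = 0.858), and mmu-miR-133a-3p and mmu-miR-133b-3p were detected on 0 of 8 arrays.

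Markers of the cells in the tissue were read beside the family. Of 9 tubule epithelium miRNAs 8 were tested and 0 passed an adjusted p of 0.05, beside 3.09% of all 194 tested miRNAs. The 8 had a median difference of 0.09, and 7 of 8 were above 0, beside 115 of all 194. The summed linear level of the tubule miRNAs, in units of the scaling intensity, was 10.8 to 11.7 in tacrolimus samples and 10.5 to 11.1 in control samples. Both endothelial miRNAs (3.56 to 3.79 with tacrolimus, 3.44 to 4.09 in controls) and both smooth muscle miRNAs (0.342 to 0.405 with tacrolimus, 0.345 to 0.384 in controls) were tested, and 0 passed. The liver marker mmu-miR-122-5p and both neural markers were detected on 0 arrays, and 0 of 4 striated muscle markers were tested.

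Markers of blood cells had larger differences between the groups than the miR-30 members, and 0 passed the adjusted threshold. Of all 194 tested miRNAs, 115 were above 0, 79 were below 0, and 15.5% had an unadjusted p under 0.05 by limma. All 6 leukocyte miRNAs were above 0 (median 0.58, 3 with an unadjusted p under 0.05). Their summed levels were 0.723 to 0.995 in tacrolimus samples and 0.454 to 0.738 in control samples. Of 4 erythrocyte miRNAs 3 were tested and all were below 0 (median -0.67, 3 with an unadjusted p under 0.05), with summed levels of 1.89 to 2.52 in tacrolimus samples and 2.11 to 5.84 in control samples. The part of these cells in the miR-30 values was not tested.

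**Figure D4:**
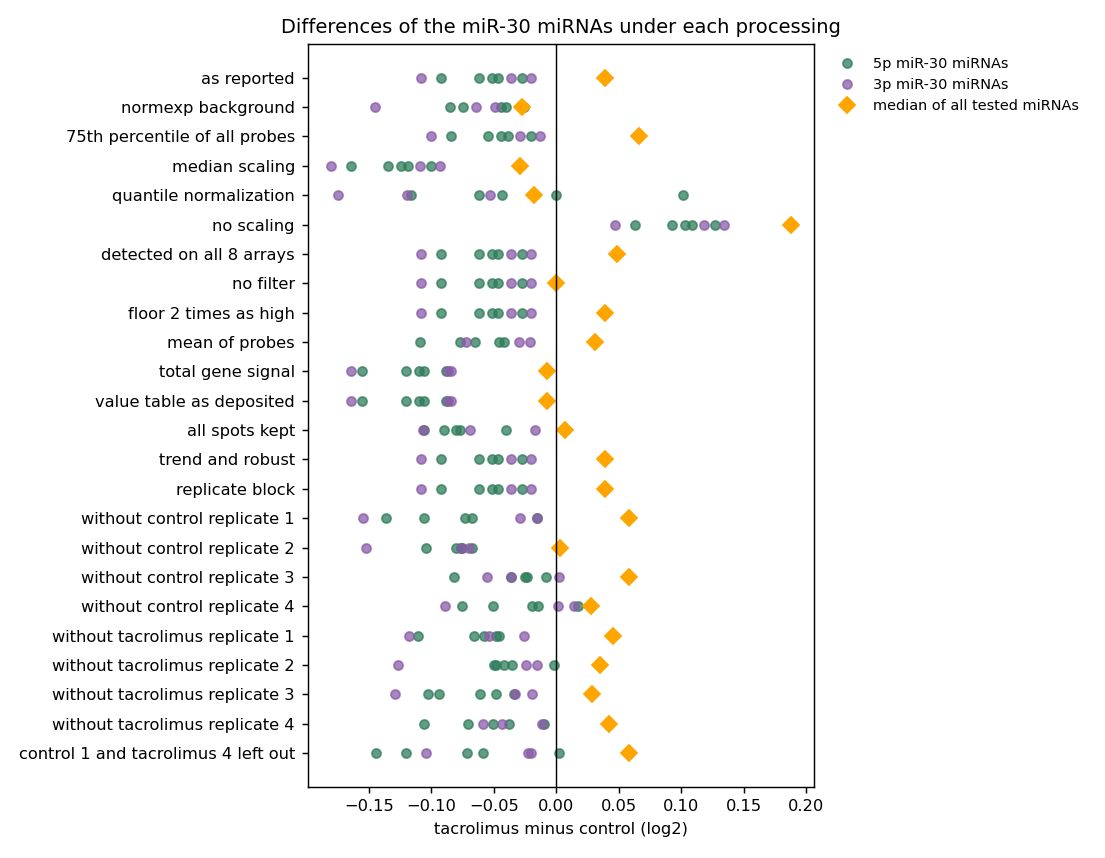
Each row is 1 way of processing the arrays or of leaving samples out, circles are the tacrolimus minus control differences (log2) of the 8 tested miR-30 miRNAs, and diamonds are the median of all tested miRNAs. As reported, all 8 lie below 0 and below the median of 0.04, whereas without scaling all 8 lie above 0 and below a median of 0.19. Scaling shifts every miRNA of an array alike, apart from values at the floor, so their place below the median was fixed in advance between these rows.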

How the data were processed

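Total RNA (0.1 µg per array, RIN 9 by the labels) of whole kidney was hybridised to 8 one-colour arrays. Per the file headers, the deposited files are scanner output of Agilent Feature Extraction 10.7.3.1. The values used are its processed spot intensity, deposited without normalization between arrays. The deposited series table of intensity equals the scanner's total gene signal in 100% of cells, within a relative tolerance of 1e-06. The submitters' processing notes name limma. The labels name a low-input Quick Amp protocol, which is known as an mRNA labelling, so how the miRNAs were labelled is unclear.

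Spots flagged as outliers (7.36% to 11.2% of spots per array) and control spots were left out, and no miRNA spot was saturated. Each probe's other spots were averaged, divided by each array's 75th percentile over probes detected on all arrays, set to a common floor of -5.96 log2 and logged. A probe was detected where at least 0.5 of its spots were well above background. The brightest probe stood for a miRNA. limma 3.58.1 in R 4.3.3 tested tacrolimus against control over 194 miRNAs, and arm ratios over 22 hairpins, each adjusted by Benjamini-Hochberg. The scripts were tested on simulated data. The number of arrays limits the precision.

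Members and lists were chosen with earlier results of these data known. Named are all 10 members, their relatives, a calcineurin list, the 3 nearest profiles per arm and marker lists as counts. Also named, after their values were seen, are miR-652, the miRNAs set beside mmu-miR-199b-5p and those given for their spread. Alternatives changed background correction, scaling, filter, floor, probe summary, signal, flags, variance model, replicate block and the samples included.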

Additional observations from a re-analysis of the deposited data

Results flagged for a closer look

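Among 22 groups of 4 samples examined for 1 sample far from the rest, 2 were marked, where chance marks about 1 in 20 groups (1.1 here). mmu-miR-30e-5p in tacrolimus sample 2 was lower than the mean of the other 3 tacrolimus samples, a gap of -0.17 log2. mmu-miR-30c-2-3p in tacrolimus sample 4 was lower than the mean of the other 3 tacrolimus samples, a gap of -0.20 log2.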

How the results depend on the processing

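0 of 8 members passed the adjusted threshold in all 23 alternatives, the lowest adjusted p being 0.386. Of 184 member differences under alternatives 170 kept their direction and 14 reversed. The 170 overstate stability. The changes of filter, floor, variance model and replicate block left the member differences identical. The deposited table repeats the total gene signal. Without scaling, mmu-miR-30a-5p, 30b-5p, 30c-5p, 30d-5p, 30e-5p, 30a-3p, 30e-3p and 30c-2-3p differed by 0.10, 0.13, 0.11, 0.093, 0.063, 0.13, 0.12 and 0.047, with medians of 0.10 (guide), 0.12 (passenger) and 0.19 (all tested), a shift of the last that the members shared. Quantile normalization gave 0.10 for mmu-miR-30a-5p, -0.12 for the passenger median, -0.018 for all tested, and 0.22 and 0.0096 for the Mir30a and Mir30e ratios. Median scaling gave -0.12 for the guide median and -0.029 for all tested, and normexp background -0.027 for all tested and 0.0045 for the Mir30a ratio. Leaving out 1 sample at a time gave -0.069 to 0.014 for mmu-miR-30a-3p, -0.076 to 0.017 for mmu-miR-30b-5p and -0.076 to 0.0013 for mmu-miR-30e-3p. The other 5 members stayed below 0 with any 1 sample left out, but their sizes moved: -0.15 to -0.036 for mmu-miR-30c-2-3p, -0.14 to -0.020 for mmu-miR-30d-5p, -0.11 to -0.049 for mmu-miR-30e-5p, -0.080 to -0.015 for mmu-miR-30c-5p and -0.075 to -0.0079 for mmu-miR-30a-5p. Control 1 and tacrolimus 4 left out together, chosen after seeing the data, gave 0.0025 for mmu-miR-30b-5p. Of 69 miR-30 arm ratio differences 66 kept their direction. Many of these were identical to those reported, since no scaling, median scaling and scaling to all probes cancel in the ratio. The changes of filter, floor, variance model and replicate block also left them identical.

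The count over all miRNAs was 6. It was 8 with median scaling, 7 with quantile normalization and 5 with detection on all 8 arrays. It was 1 with normexp, 3 with those 2 samples left out, 0 to 6 with 1 sample left out (0 without control 1, control 2, tacrolimus 1 or tacrolimus 4, 1 without control 3, 2 without control 4 or tacrolimus 2), and 0 (2 to 31 at an unadjusted p under 0.05 by limma) with mean of probes, a floor 2 times as high, no filter, no scaling, scaling to all probes, total gene signal, the deposited table, flagged spots kept, trend and robust, and the replicate block. The count of arm ratios was 1. It was 0 with quantile normalization or no filter, 2 with no scaling, detection on all 8 arrays, a higher floor, mean of probes, trend and robust or those 2 samples left out, and 1 to 2 with 1 sample left out (2 without control 1). The cause of each was not tested. Without a filter most variances were 0, so that fit is unreliable.

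Same-numbered samples correlated at 0.0946 to 0.140 and 1 of 4 correlated best with its own number, so the numbers were not taken as pairs, although same-numbered samples also share a slide column. The replicate block left 0 members past the threshold. With 4 arrays per group, small changes such as those of the members could not be separated from the spread.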
